A study of Caenorhabditis elegans with 12 samples.

Results

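Of the 9445 protein-coding genes of Caenorhabditis elegans that carry only a cosmid-style sequence name, 8 met limits set for low mean levels in wild type and in skn-1gf and higher ones in both genotypes that carry daf-2lf. The genes were F15B9.6, F56A4.3, E02H4.4, C06E7.88, F55B11.6, Y9C9A.16, C38D9.2 and K03D3.2. They were chosen by their mean level in CPM, a gene's count divided by the library's total count and multiplied by 1000000. The mean over replicates had to stay under 1 CPM in each genotype without daf-2lf and to reach 3 CPM in each genotype with it. The deposited table holds 46936 genes of all kinds.

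RNA of whole worms was sequenced in 4 genotypes with 3 libraries each, which were wild type, skn-1gf, daf-2lf and daf-2lf;skn-1gf, the double mutant. In worm nomenclature gf stands for gain of function and lf for loss of function. All worms grew on NGM agar (nematode growth medium) with the bacterium OP50 as food. The labels name no allele, age, stage or sex, and nothing states that replicates of a genotype were separate cultures, so p-values measure the spread between these libraries only. The stated aim was to compare daf-2lf worms with double mutants across all transcripts.

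DAF-2 is the insulin and insulin-like growth factor receptor of the worm. Its signal keeps the transcription factor DAF-16 out of the nucleus, and when the signal is weak DAF-16 enters the nucleus and turns on genes of stress resistance, metabolism and dauer formation. Worms with reduced DAF-2 activity live long and tend towards the dauer larva, a resistant stage that does not feed. SKN-1 is the worm's Nrf factor and activates detoxification and glutathione genes.

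Total counts per library ranged from 16779245 to 29346039, so that 3 counts corresponded to 0.102 to 0.179 CPM. The daf-2lf replicate 1 library stood apart from daf-2lf replicates 2 and 3 by gene length: its deviation from them had a Spearman correlation of -0.58 with gene length across genes (genes are not independent replicates). In the other genotypes the same correlation ran from -0.20 to 0.13. Summed markers of intestine (8 genes), body wall muscle (6) and neurons (8) were detected in every library, at 5397 to 13186, 8069 to 13531 and 402 to 808 CPM over all libraries. In the order wild type, skn-1gf, daf-2lf, double mutant, the 6 yolk protein genes summed to 452 to 655, 32.1 to 63.4, 1.29 to 1.89 and 2.19 to 3.05 CPM, with vit-3 and vit-5 at 0 in all libraries with daf-2lf. The 14 sperm markers summed to 832 to 1016, 184 to 435, 1.83 to 3.61 and 3.55 to 5.62 CPM in the same order, with 5 of them (msp-3, msp-10, msp-19, msp-36 and msp-40) at 0 with daf-2lf. The 10 oocyte and eggshell markers summed to 340.2 to 447, 32.7 to 138, 27.9 to 63.1 and 55.3 to 57.0 CPM, with perm-4 at 0 with daf-2lf. The 6 early embryo markers stayed at or under 0.273 CPM in every library. The 5 dauer cuticle markers summed to 11.5 to 14.7, 2.23 to 2.32, 9.97 to 25.8 and 43.1 to 68.8 CPM. Within this sum, cut-6 had means of 9.389, 1.603, 8.945 and 10.214 CPM, and cut-5 2.992, 0.646, 0.441 and 1.43 CPM. Like the 8 genes, col-2, cut-1 and col-40 were low without daf-2lf and higher with it. Their means were 0, 0, 2.502 and 12.52 CPM (col-2), 0.061, 0, 2.634 and 15.115 CPM (cut-1), and 0.219, 0.015, 2.848 and 15.021 CPM (col-40). In daf-2lf these means stayed under 3 CPM, with SDs of 2.006, 1.824 and 2.499 CPM. The 18 larval cuticle and moulting markers summed to 9538 to 12974, 3504 to 5667, 11025 to 11366 and 11070 to 12219 CPM. Behind the like sums of wild type and daf-2lf, single genes of this list differed in both directions. For example, bli-1 had means of 1211 CPM in wild type and 0.512 CPM in daf-2lf, and bli-2 887 and 10.9 CPM. By contrast, dpy-7 had 152 and 411 CPM, and noah-2 465 and 981 CPM. Yolk, sperm, oocyte and cuticle marker levels differed between genotypes, in part along other lines than the 8 genes. Their part in the results was not tested. In whole worms, fewer cells of a type and less RNA per cell cannot be told apart.

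The 8 genes lay on 3 chromosomes, 4 on IV, 3 on V and 1 on X, and no pair lay within 10 kb. The nearest pair, Y9C9A.16 and C06E7.88, was 889732 bases apart. Coordinates are those of the deposited table, equal to RefSeq's for WBcel235 in all 8 cases, and exons come from Ensembl's annotation of that assembly. Of the 8, 2 (25%) carried a Pfam domain in the deposited annotation, against 41% of all unnamed protein-coding genes, and 6 (75%) were called uncharacterized protein, against 68.4%.

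F56A4.3 (identifier 186346, chromosome V, 2453414 to 2456147, plus strand) carries the N-terminal domain of glutathione S-transferases, the enzymes that attach glutathione to toxic molecules. The annotation gives the worm enzyme gst-10 as its best Swiss-Prot match and lists no C-terminal glutathione S-transferase domain. Its longer coding form has 4 exons and 139 codons, and 81.9% of its span is intron. Y9C9A.16 (189421, chromosome IV, 4973521 to 4976125, minus strand) carries a pyridine nucleotide-disulphide oxidoreductase domain. Its best match is the mouse mitochondrial sulfide:quinone oxidoreductase, the enzyme that oxidises hydrogen sulfide and passes its electrons to quinone. The longer form has 8 exons and 422 codons. C06E7.88 (13194964, chromosome IV, 5865858 to 5867289, minus strand) has 4 exons and 167 codons, and its best match is the uncharacterized worm protein T05H10.3.

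Neither C06E7.88 nor the remaining 5 genes have a domain in the annotation. E02H4.4 (183995, chromosome X, 14257961 to 14262620, plus strand) is the longest protein, with 518 codons in 11 exons. F15B9.6 (184523, chromosome V, 13014144 to 13016641, plus strand) has 458 codons in 8 exons. C38D9.2 (183313, chromosome V, 17567150 to 17571739, plus strand) has 493 codons in 9 exons and 4 annotated transcripts with the same coding sequence but different untranslated 5′ exons. K03D3.2 (186933, chromosome IV, 16328062 to 16328619, minus strand) has 144 codons in 2 exons. F55B11.6 (3565995, chromosome IV, 14416262 to 14417228, minus strand) is the shortest protein, with 91 codons, and 388 of its 691 exonic bases are 3′ untranslated.

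**Figure D1:**
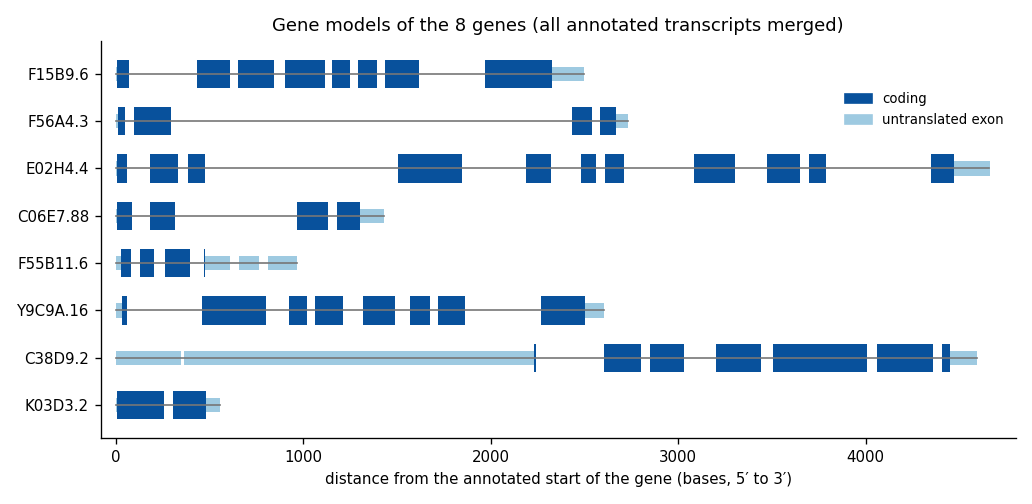
Gene models of the 8 genes to scale, with the distance from the annotated start in bases on the horizontal axis and 1 gene per row. Dark boxes are coding and light boxes untranslated exon sequence, all annotated transcripts merged. F56A4.3 is mostly intron (81.9% of its span) and C38D9.2 has the longest untranslated exons.

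The limits removed most genes step by step. Of the 9445 unnamed genes, 3944 had at least 3 CPM in daf-2lf and 3759 of these had at least 3 CPM in the double mutant. Only 69 of the 3759 were under 1 CPM in wild type, and 8 of the 69 were also under 1 CPM in skn-1gf. The other 61 were under the limit in wild type but had 1.11 to 42.6 CPM in skn-1gf, with a median of 6.46, and 44 of them reached 3 CPM there. Medians in wild type, daf-2lf and the double mutant were 0.633, 5.12 and 5.15 CPM for these 61 genes and 0.450, 7.52 and 6.02 CPM for the 8. The mirrored limits, at least 3 CPM in wild type and skn-1gf and under 1 CPM with daf-2lf, were met by 557 unnamed genes. These counts describe the choice of genes and carry no test.

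The values closest to each limit were as follows. In wild type the 2 highest of the 8 genes were C06E7.88 at 0.607 and F15B9.6 at 0.554 CPM, and the nearest genes kept out by that limit alone were B0294.1 at 1.025 and F23F1.2 at 1.08. In skn-1gf the highest were K03D3.2 at 0.942 and F15B9.6 at 0.929 CPM, and the nearest outside were Y71G12B.32 at 1.11 and Y39G8B.7 at 1.15. Y39G8B.7 had mean levels of 46.1 CPM with daf-2lf alone and 66.0 CPM with both mutations, above all 8. In daf-2lf the lowest were K03D3.2 at 5.14 and Y9C9A.16 at 5.702 CPM, and the nearest outside were Y45F10D.14 at 2.999 and T19C9.10 at 2.815. In the double mutant the lowest were E02H4.4 at 3.42 and K03D3.2 at 4.02 CPM, and the nearest outside were C35A5.10 at 2.83 and Y51B9A.8 at 2.598.

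**Figure D2:**
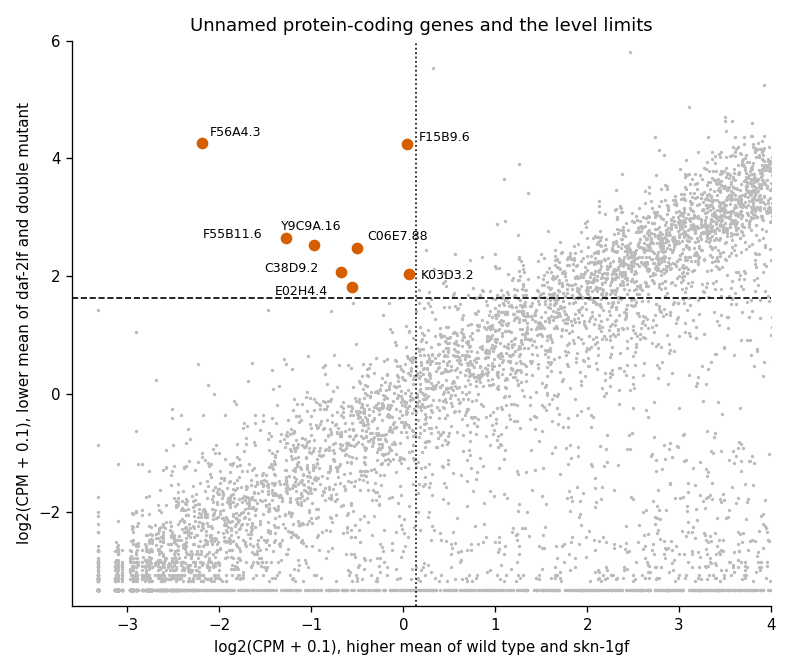
Each grey point is an unnamed protein-coding gene, with the higher of its wild-type and skn-1gf means on the horizontal axis and the lower of its daf-2lf and double mutant means on the vertical axis, both as log2(CPM + 0.1); genes beyond the axis ranges are not drawn. The dotted line is 1 CPM and the dashed line 3 CPM, and the 8 orange points above and to the left of both are the genes described, with F56A4.3 farthest from the lines.

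F56A4.3, the glutathione S-transferase-like gene, had no count in any wild-type library. In skn-1gf it had 5, 0 and 3 counts in replicates 1, 2 and 3. The daf-2lf libraries held 31.1, 22.5 and 16.6 CPM and those of the double mutant 19.3, 20.5 and 17.5 CPM. Its lowest library with daf-2lf thus stood far above its highest without it. Its mean of 23.4 ± 7.26 CPM in daf-2lf (SD, n = 3 here and below) was at least 155-fold higher than wild type, taking 3 counts in the shallowest wild-type library as the floor. Scaled to length it was the highest of the 8 in daf-2lf, at 47.2 CPM per kb of exon, above 88.4% of the 18797 detected protein-coding genes.

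Y9C9A.16, the gene like sulfide:quinone oxidoreductase, had 0.532, 0.454 and 0.248 CPM in the wild-type libraries and 0.137, 0.358 and 0.258 CPM in those of skn-1gf. The daf-2lf libraries held 3.07, 7.69 and 6.34 CPM, and those of the double mutant 6.002, 7.02 and 6.64 CPM. Levels with and without daf-2lf did not overlap, and the means of 0.411 ± 0.146 (wild type) and 5.702 ± 2.37 CPM (daf-2lf) were 13.9-fold apart. At 4.06 CPM per kb in daf-2lf it lay close to the median of detected protein-coding genes, 4.18.

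C06E7.88 stood at 0.573, 0.504 and 0.745 CPM in the wild-type libraries, and at 0.364, 0.238 and 0.387 CPM in those of skn-1gf. The daf-2lf libraries held 9.35, 12.2 and 5.003 CPM, and the double mutant libraries 6.002, 5.47 and 4.94 CPM. The lowest libraries with daf-2lf, near 5 CPM, were 1 of each genotype. The fold over wild type in daf-2lf was 14.6, and the level per kb of exon in daf-2lf, 13.8 CPM per kb, was the second of the 8.

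Among the remaining 5 genes, F15B9.6 was the most abundant. Its wild-type libraries held 0.409, 0.807 and 0.447 CPM and its skn-1gf libraries 1.09, 0.834 and 0.861 CPM, so that 1 skn-1gf library lay above the limit that its mean met. With daf-2lf alone the libraries held 8.02, 25.4 and 22.9 CPM, and with both mutations 30.6, 35.0 and 32.6 CPM. The mean of 32.7 ± 2.22 CPM in the double mutant was the highest of any of the 8 genes in any genotype and 35.2-fold that of skn-1gf.

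E02H4.4 was at 0.164, 0.655 and 0.645 CPM in the wild-type libraries and at 0.957, 0.477 and 0.301 CPM in those of skn-1gf. The daf-2lf libraries held 7.56, 23.9 and 12.7 CPM and the double mutant libraries 3.001, 3.42 and 3.85 CPM. The lowest daf-2lf library lay above the highest of the double mutant. The fold over wild type in daf-2lf was 30.2, while the double mutant was 5.92-fold above skn-1gf.

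F55B11.6 was at 0.491, 0.202 and 0.248 CPM in the wild-type libraries. Its skn-1gf libraries held 0.228, 0.0596 and 0.0861 CPM, from 5, 1 and 2 counts. Those of daf-2lf held 7.19, 3.02 and 8.32 CPM and those of the double mutant 7.14, 7.44 and 6.75 CPM. The double mutant libraries were close together within the range of daf-2lf, and their mean was 57.1-fold that of skn-1gf.

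C38D9.2 was at 0.532, 0.454 and 0.596 CPM in the wild-type libraries and at 0.456, 0.417 and 0.258 CPM in those of skn-1gf. The daf-2lf libraries held 4.03, 4.26 and 9.66 CPM and the double mutant libraries 3.501, 4.01 and 4.74 CPM, so that daf-2lf replicate 3 was high and the other libraries with daf-2lf were alike. K03D3.2 was at 0.409, 0.252 and 0.199 CPM in the wild-type libraries and at 0.865, 1.01 and 0.947 CPM in those of skn-1gf. The daf-2lf libraries held 5.23, 6.92 and 3.26 CPM and the double mutant libraries 3.59, 4.197 and 4.26 CPM. Its double mutant level was 4.26-fold that of skn-1gf, the smallest such ratio of the 8. Per kb of exon, C38D9.2 was the lowest of the 8 in daf-2lf, at 2.76 CPM per kb of the deposited length of 2166 bases, which is shorter than the 3834 bases its Ensembl exons cover. In daf-2lf, E02H4.4 stood at 8.42 CPM per kb.

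**Figure D3:**
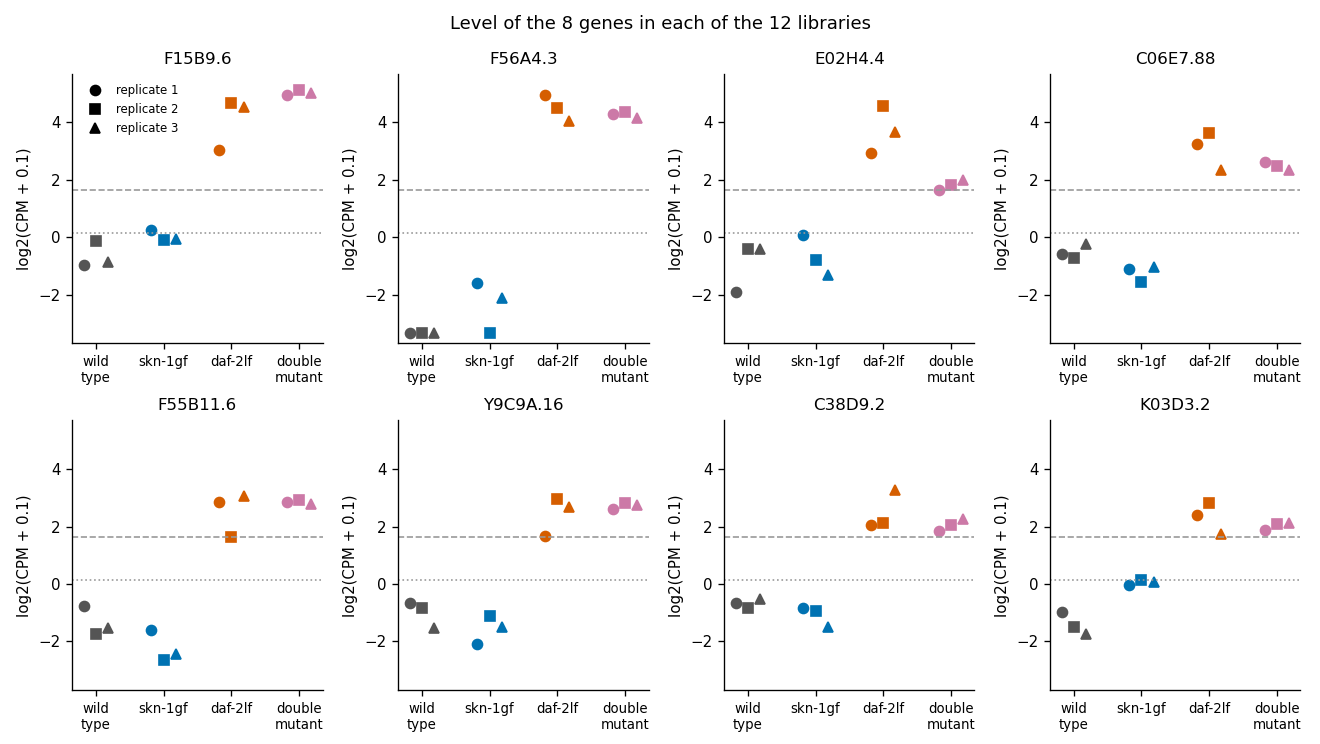
Level of each of the 8 genes in the 12 libraries as log2(CPM + 0.1), with the genotypes along the horizontal axis and the replicate shown by the marker shape. The dotted line is 1 CPM and the dashed line 3 CPM. Every library with daf-2lf lies above every library without it for all 8 genes, as the choice of genes made likely, and the 3 double mutant points of E02H4.4 lie below its daf-2lf points.

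Replicates differed more in daf-2lf than in the double mutant. The coefficient of variation over the 3 daf-2lf libraries was 30.997% to 56.7% for the 8 genes, with a median of 43.4%. The median over the 5133 protein-coding genes in the same range of levels was 27.6%. In the double mutant the 8 genes varied by 4.86% to 15.2%, with a median of 8.53%, against 8.19% for 5913 genes. The 4 genes with over 1000 exonic bases, F15B9.6, E02H4.4, Y9C9A.16 and C38D9.2, were lowest in daf-2lf replicate 1, at 0.332, 0.413, 0.438 and 0.579 times the mean of replicates 2 and 3. The median ratio over protein-coding genes of at least 3 CPM was 0.903 from 1000 to 1500 bases and 0.674 from 1500 to 2500 bases. The 4 shorter genes had ratios of 1.59 (F56A4.3), 1.27 (F55B11.6), 1.08 (C06E7.88) and 1.03 (K03D3.2), where genes of up to 600 bases had a median of 1.415 and those of 600 to 1000 bases 1.18. Replicates 2 and 3 also differed from each other: C06E7.88 and K03D3.2 were lowest in replicate 3, F55B11.6 was lowest in replicate 2, and C38D9.2 was highest in replicate 3.

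**Figure D4:**
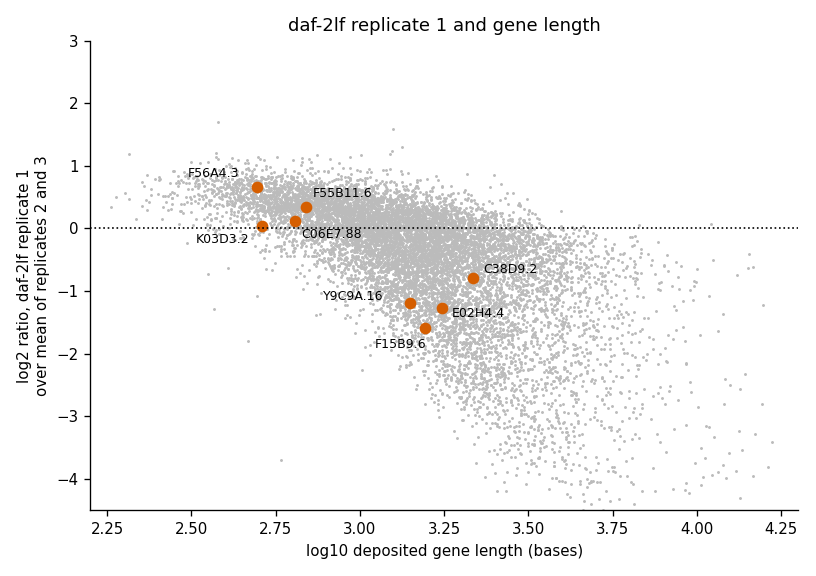
The log2 ratio of daf-2lf replicate 1 to the mean of daf-2lf replicates 2 and 3 (vertical axis) against the log10 of the deposited gene length in bases (horizontal axis). Grey points are protein-coding genes of at least 3 CPM in daf-2lf, and orange points are the 8 genes. The 4 longer ones lie below 0, at ratios of 0.332 to 0.579, and the 4 shorter ones above it.

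The double mutant was then compared with daf-2lf, the contrast the study names as its question. Of the 8 genes, 1 was called, E02H4.4, which fell by 2.13 on the log2 scale (SE 0.43, 95% interval -3.07 to -1.19, edgeR quasi-likelihood test, adjusted p = 0.0271). All 8 genes passed the filter on low counts, which their choice made likely. The choice also required at least 3 CPM in the double mutant, so genes that fell below that level there were left out. Of 16 unnamed genes within the limits for the other genotypes, 8 were left out by this limit alone. Of those left out, C35A5.10 had 3.004 CPM in daf-2lf and 2.829 CPM in the double mutant, and Y51B9A.8 had 4.969 and 2.598 CPM. Over all 15575 genes tested, 1.62% were called, 1.01% as higher and 0.616% as lower. Mean E02H4.4 levels were 14.7 ± 8.35 CPM for daf-2lf and 3.42 ± 0.425 CPM for the double mutant. Of 20 alternatives 14 kept the call, and over all 20 the log2 change ran from -2.59 to -1.63 and the edgeR, DESeq2 or limma adjusted p from 1.6e-05 to 0.159. It was lost without daf-2lf replicate 2 (-1.63 log2, adjusted p = 0.0853) and without double mutant replicate 1, 2 or 3 (adjusted p = 0.159, 0.138 and 0.105), and with only daf-2lf and double mutant libraries in the fit (adjusted p = 0.0844). It was also lost with the replicate number as a block (edgeR adjusted p = 0.0539). Whether the numbers pair the libraries is not stated, and 2 of 18 same-numbered pairs deviated together with r over 0.1. The call was kept without daf-2lf replicate 1.

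The other 7 genes were not called in this contrast. F15B9.6 was 1.74-fold higher in the double mutant by its means, with all 3 double mutant libraries above all 3 of daf-2lf, and the fitted change was 0.78 log2 (95% interval 0.13 to 1.44, edgeR adjusted p = 0.258). C06E7.88 had a change of -0.79 log2 (95% interval -1.43 to -0.14, edgeR adjusted p = 0.255). Without daf-2lf replicate 3, C06E7.88 was called at -1.10 log2. For C38D9.2, K03D3.2 and F56A4.3 the changes were -0.58, -0.44 and -0.40 log2, and the 95% intervals reached from -1.22 to 0.07, from -1.06 to 0.19 and from -1.14 to 0.33. For F55B11.6 and Y9C9A.16 they were 0.12 and 0.17 log2, with intervals of -0.65 to 0.88 and -0.47 to 0.82. A test that weights libraries by quality, limma-voom, called 4 of the 8, E02H4.4, F15B9.6, C06E7.88 and F55B11.6, where it called 13.6% of all genes.

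**Figure D5:**
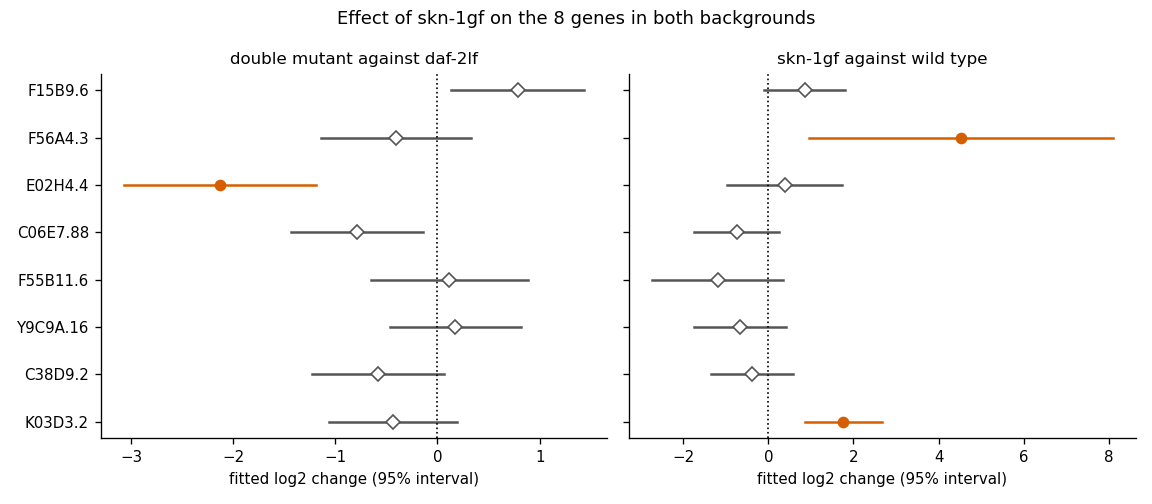
Fitted log2 change (points) with its 95% interval (lines) for the double mutant against daf-2lf on the left and skn-1gf against wild type on the right. Filled orange circles passed the adjusted p threshold of 0.05 and open diamonds did not. E02H4.4 is the 1 gene that passed on the left, at -2.13, and K03D3.2 and F56A4.3 passed on the right.

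In the wild-type background, where the choice of genes kept both means under 1 CPM, 2 of the 8 genes were called between skn-1gf and wild type, against 43.6% of all genes tested (22.6% higher and 21% lower). K03D3.2 rose from 0.287 ± 0.109 to 0.942 ± 0.074 CPM, by 1.77 log2 (SE 0.41, edgeR adjusted p = 0.00519). Its lowest skn-1gf library exceeded its highest wild-type library, and 20 of 20 alternatives kept the call, with adjusted p from 0.00124 to 0.0226. F56A4.3 was the other call (edgeR adjusted p = 0.0432), but it rests on 8 counts in skn-1gf replicates 1 and 3, and skn-1gf replicate 2 had 0 counts like wild type, so no fold is given. That call was lost in 9 of 19 alternatives. Each fit without a wild-type library, without skn-1gf replicate 1 or 3, without daf-2lf replicate 2 or without a double mutant library lost it, with adjusted p-values of 0.0534 to 0.134.

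The remaining 6 genes were not called between skn-1gf and wild type. F15B9.6 went from 0.554 ± 0.220 CPM (wild type) to 0.929 ± 0.142 CPM (skn-1gf), a change of 0.86 log2 (edgeR adjusted p = 0.132). It was called in 3 of 20 alternatives, which were the edgeR fit without daf-2lf replicate 1 (adjusted p = 0.0270) and limma-voom with quality weights, with and without that library (adjusted p = 0.00272 and 0.00656). C06E7.88 stood at 0.607 ± 0.124 and 0.330 ± 0.0802 CPM, with all skn-1gf libraries below all of wild type, and a change of -0.75 log2 (edgeR adjusted p = 0.205). The changes of F55B11.6, Y9C9A.16, C38D9.2 and E02H4.4 were -1.19, -0.66, -0.39 and 0.38 log2, with adjusted p-values of 0.189, 0.304, 0.497 and 0.648. Both limma-voom fits also called Y9C9A.16 (-1.33 log2 with all libraries) and E02H4.4 (1.65 log2 with all libraries). In this contrast limma-voom called 75.4% of all genes tested with all libraries and 73.3% without daf-2lf replicate 1. The edgeR fit without that library called 60.1%. Scaling shifted the split of all calls in this contrast: 51.8% of them were higher under TMM scaling and 40.4% under RLE scaling, as the median log2 change of all genes went from 0.025 to -0.131.

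Whether the skn-1gf effect differed between the backgrounds was tested as an interaction, which was called for 3 of the 8 genes, against 27.7% of all genes tested (9.91% positive and 17.7% negative). The choice of genes bounded all 4 means that the interaction compares, at under 1 CPM without daf-2lf and at least 3 CPM with it. The interaction calls are thus not independent of the choice. K03D3.2 rose with skn-1gf in the wild-type background but stood at 5.14 ± 1.83 CPM with daf-2lf alone and at 4.02 ± 0.369 CPM with both mutations, and its interaction of -2.20 log2 (SE 0.50, edgeR adjusted p = 0.00806) held in 19 of 19 alternatives. E02H4.4 had an interaction of -2.51 log2 (SE 0.76, edgeR adjusted p = 0.0289), lost in 6 of 19 alternatives (highest adjusted p = 0.129). These were the fits without wild-type replicate 1, without skn-1gf replicate 1 or 2, without daf-2lf replicate 2 and without double mutant replicate 1 or 2. F56A4.3 had an interaction of -4.93 log2 that again rests on the 8 counts in skn-1gf (edgeR adjusted p = 0.0475), and it was lost in 10 of 19 alternatives.

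Known targets of both factors give the setting of these changes. Of 14 genes known to be activated by SKN-1, 13 rose in the double mutant against daf-2lf and 14 rose in skn-1gf against wild type, with median changes of 2.88 and 4.50 log2, where the medians of all tested genes were 0.0 and 0.025. Of all tested genes, 1.01% and 22.6% were called as higher in these contrasts. The largest rise of these 14 in the double mutant was that of gst-30, a glutathione S-transferase gene, at 7.23 log2 (SE 0.39, edgeR adjusted p = 6.24e-07), from 0.215 to 36.4 CPM. Of 18 genes known to be activated by DAF-16, 14 were tested and 0 were called between the double mutant and daf-2lf by edgeR, with 3 at an unadjusted p under 0.05, 1 called by DESeq2 and 3 by limma-voom with quality weights. Over all genes tested, edgeR called 1.62%, DESeq2 3.53% and limma-voom 13.6%. In skn-1gf against wild type 2 of these 14 rose and 5 fell, where 22.6% of all genes tested were called as higher and 21% as lower. The DAF-16 list summed to 1180 to 1411, 778 to 1009.8, 2141 to 2295 and 1999 to 2083 CPM over wild type, skn-1gf, daf-2lf and double mutant libraries. Of the genes on both lists, 0 were within the limits that define the 8. The gene sod-3, the superoxide dismutase commonly used to read DAF-16 activity, was above the wild-type limit, with 1.42, 0.484, 15.3 and 12.593 CPM in the order above. On the DAF-16 list, mtl-1 had a pattern like that of the 8, with 0.118, 0.14, 3.698 and 2.848 CPM in the same order. It missed the limit of 3 CPM in the double mutant.

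Genes that share a best match with one of the 8 had other patterns. Besides F56A4.3, 4 genes have gst-10 as their best match. These are gst-10 itself, at 110.2 ± 22.6, 232 ± 17.2, 139 ± 27.1 and 408 ± 34.3 CPM over wild type, skn-1gf, daf-2lf and double mutant, and gst-41, at 0.096, 2.665, 2.51 and 3.25 CPM. The last of the 4, Y45G12C.3 and F56A4.4, reached no more than 0.216 CPM. Of 41 protein-coding genes with the N-terminal glutathione S-transferase domain, F56A4.3 alone met the 4 limits. The other worm gene matched to sulfide:quinone oxidoreductase, sqrd-1, which protects worms from hydrogen sulfide, had 5.87 ± 1.365, 2.49 ± 0.074, 5.045 ± 0.578 and 4.53 ± 0.995 CPM over the 4 genotypes. T05H10.3, the match of C06E7.88, had 0.321, 0.658, 0.776 and 1.55 CPM. How reads that fit several such genes were counted is not stated.

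The 4 limits were next applied to the surroundings of the genes. Of the 16 nearest protein-coding neighbours, 0 met the 4 limits, 8 were under 1 CPM in all genotypes and 4 had at least 3 CPM in wild type. The 1 neighbour with a like pattern was irld-35, which faces F56A4.3 from the opposite strand with a gap of 28 bases. It had no counts in any library of wild type or skn-1gf, 3.805 ± 1.495 CPM with daf-2lf alone and 1.696 ± 0.526 CPM with both mutations, under the limit in the latter. Some neighbours had the opposite pattern. E03H12.5, 1100 bases upstream of Y9C9A.16 on the opposite strand, had 64.2 ± 5.63, 19.04 ± 10.7, 0.092 ± 0.072 and 0.129 ± 0.080 CPM over the 4 genotypes, and F55B11.7, 2440 bases upstream of F55B11.6, had 2.26 and 0.868 CPM without daf-2lf and no counts with it. With strand handling not stated, overlapping genes could share reads, but only C06E7.88 and Y9C9A.16 overlap other genes. The sperm gene spe-27 shares 61 bases with C06E7.88 and had 1.58 and 0.667 CPM in wild type and skn-1gf but 0.014 and 0 with daf-2lf, and linc-79 within Y9C9A.16 had 1 count in all libraries together.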

How the data were processed

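Raw read counts for every gene in 12 libraries were deposited as 1 table, with no normalization. Per the labels, RNA came from TRIzol-lysed whole worms and was purified on columns, and an outside company built the libraries. Aligner, counting program, strand handling and the treatment of reads matching several genes are not given in the sources used here. The submitters' processing notes name the build ce10, while the chromosome accessions in the file header columns are those of WBcel235; coordinates are printed as deposited. Columns were matched to samples by their labels, and no per-sample column was left unused.

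The 8 genes and all lists were chosen with earlier results of these data known. Because the choice used the level in all 4 genotypes, no test is given for daf-2lf or the double mutant against wild type or skn-1gf. The tests that are given, the interaction among them, compare means that the choice also bounded. Levels are CPM from column totals. In R 4.3.3, edgeR 4.0.16 (filterByExpr, minimum count 10, 15575 genes kept; TMM) was fitted to all 12 libraries with 1 coefficient per genotype. Quasi-likelihood tests were adjusted by Benjamini-Hochberg over all genes tested, with a threshold of 0.05. Standard errors and 95% intervals derive from the coefficient and its F statistic. All genes of the choice were named, and other genes were named by position, shared match, list membership or closeness to a limit. Protein similarity among the 8 was not examined. The procedure was tested on simulated data. Alternatives used DESeq2 1.42.0, limma 3.58.1 voom with quality weights, RLE scaling, no filter, fits to the groups compared, a replicate block, a length trend and fits without each library. The detection limit is 3 counts and covers counting error only.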

Additional observations from a re-analysis of the deposited data

Results flagged for a closer look

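For 3 of the 8 genes the skn-1gf effect differed between the daf-2lf and the wild-type background by the interaction test of edgeR, against 27.7% of all genes tested. The choice of genes bounded all 4 means that this test compares, so its calls are not independent of the choice. K03D3.2 had an interaction of -2.20 log2, with means of 0.287 and 0.942 CPM without daf-2lf (wild type, then skn-1gf) and 5.14 and 4.02 CPM with it. E02H4.4 had an interaction of -2.51 log2, with means of 0.488, 0.578, 14.7 and 3.42 CPM in the same order. F56A4.3 had an interaction of -4.93 log2, which rests on 0 counts in wild type and 8 counts in skn-1gf. The call held in 19 of 19 alternatives for K03D3.2. It was lost in 6 of 19 for E02H4.4 and in 10 of 19 for F56A4.3.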

How the results depend on the processing

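The number of genes within the limits was 8, and 3 with a ceiling of 0.5 CPM, 5 with a floor of 5 CPM and 8 to 11 with any 1 library left out; F56A4.3, F55B11.6 and Y9C9A.16 were within the limits in 18 of 18 alternatives. Between the double mutant and daf-2lf, 1 of the 8 was called, against 4 with limma-voom quality weights, 0 with only the groups compared (1 at an unadjusted p under 0.05), 0 with the replicate block (3 at an unadjusted p under 0.05), and 0 to 2 with a library left out. The shares of all genes tested were 1.62%, 13.6%, 0.796%, 1.35% and 0.876% to 2.96% in the same order. Between skn-1gf and wild type, 2 were called, against 5 with quality weights, 1 with only the groups compared and 1 to 3 with a library left out. Here the shares of all genes tested were 43.6%, 75.4%, 55% and 30.1% to 60.1%. The interaction was called for 3, against 5 with quality weights and 1 to 3 with a library left out. Of all genes tested it was called for 27.7%, for 60.6% with quality weights and for 17.6% to 37.4% with a library left out. Quality weights without daf-2lf replicate 1, chosen after seeing the data, gave 2 and 5 calls in the first and second contrast. That fit called 2.51% and 73.3% of all genes tested in them. Why the counts moved was not tested. Signs turned for these changes, which the edgeR fit to all libraries did not call: Y9C9A.16 in the double mutant against daf-2lf (-0.118 log2 with quality weights, -0.071 without daf-2lf replicate 1 and -0.027 with both; up to 0.429 without daf-2lf replicate 2), F55B11.6 there (-0.224 without daf-2lf replicate 2, 0.366 without daf-2lf replicate 1, and 0.939 and called with quality weights), F56A4.3 there (0.042 with quality weights and without daf-2lf replicate 1), and E02H4.4 in skn-1gf against wild type (-0.076 without wild-type replicate 1, -0.214 without skn-1gf replicate 1, 0.748 without skn-1gf replicate 3, and 1.653 and called with quality weights). Same-numbered libraries mostly did not deviate together, with r over 0.1 in 2 of 18 pairs and a highest r of 0.296. Whether the numbers pair the libraries is not stated. Of 12 libraries, 4 correlated best with their own number. Over all genes, 253 were called between the double mutant and daf-2lf, against 550 with DESeq2, 2113 with quality weights (397 also without daf-2lf replicate 1), 109 with only the groups compared, 1058 with a length trend, 469 without daf-2lf replicate 3 and 139, 150 and 154 without double mutant replicates 1, 2 and 3. Quality weights raised 6787 calls between skn-1gf and wild type to 11743 and 4308 interaction calls to 9444, and without wild-type replicate 1 there were 2786 of the latter. Under 1 CPM, levels rest on few counts, which limits the comparison of skn-1gf with wild type.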

Other observations

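The same 4 limits were met by 9 of 10549 protein-coding genes with a symbol, against 8 of 9445 unnamed ones, and by 2 pseudogenes. Of the 9, col-36 and col-123 encode cuticle collagens and grl-25 a ground-like protein of the hedgehog-related family. col-36 had 0.034 and 0.014 CPM in wild type and skn-1gf, 15.6 ± 5.97 CPM with daf-2lf alone and 55.9 ± 15.4 CPM with both mutations. grl-25 had 0.094 and 0.015 CPM, then 3.355 ± 3.008 and 15.9 ± 3.40, and col-123 had 0.047 and 0.482 CPM, then 4.59 ± 0.938 and 13.4 ± 3.44. The other 6 were pals-26, nhr-155 (a nuclear hormone receptor), try-9 (a trypsin-like protease), lips-11 (a lipase-related gene), fbxa-135 (an F-box gene) and ins-11 (an insulin-like peptide), with 3.19 to 10.4 CPM in the double mutant. The pseudogenes were C27A7.2, at 6.43 ± 1.55 CPM in daf-2lf, and B0284.5, at 3.91 ± 0.822. B0284.5 lies at 4373179 to 4375323 on chromosome III and overlaps the start of pals-26 (4375154 to 4378907) on the same strand. How reads in the overlap were counted is not stated.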
